A study of Rattus norvegicus with 9 samples.

Results

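Connexins are the subunits of gap junctions, the channels that join the interiors of neighbouring cells, and pannexins are related membrane channels that mostly open to the outside. The 7 genes described here are the connexin genes Gja5, Gja1, Gja4, Gjc1 and Gjb2 and the pannexin genes Panx1 and Panx3, each taken by its symbol from a table of 22324 genes. All 7 were found. Gja5 was included because of its large difference between SEN and NC, so its values in the comparisons with SEN are a description and carry no test. They were followed in 3 groups of primary rat nucleus pulposus cells, which come from the soft centre of the intervertebral disc, all of wild-type genotype (WT) and grown in high-glucose medium with 10% serum. The BNPMT group (3 libraries) was labelled as doxorubicin-induced senescence in which BNPMT intervened, and the labels neither expand that name nor give its dose or timing. The SEN group (3 libraries) was labelled as doxorubicin-induced senescence, with the drug at 200 nM for 24 h and 6 more days in new medium. The NC group (3 libraries) carries no treatment label. It served here as the untreated control, but the doxorubicin protocol is written on all samples, NC included. Poly(A) RNA was sequenced. The labels do not say that the libraries of a group came from separate cultures, so p-values reflect only how much these libraries vary, and that variation may be technical.

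As background, connexins assemble into hemichannels that dock with those of the next cell, so the connexins that a cell makes set which ions and small metabolites pass. Hemichannels and Panx1 channels can also release ATP, which acts on purinergic receptors and is broken down by ecto-nucleotidases. Disc cells and cartilage cells are joined by gap junctions of Cx43, the product of Gja1, whereas Cx40, the product of Gja5, is best known from the atria of the heart and from the lining of arteries.

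Total counts were 35094282 to 41971877 in BNPMT, 31206834 to 38391586 in SEN and 34514440 to 41873790 in NC libraries, and a count of 3, used as the floor, was worth 0.0715 to 0.0961 CPM (counts scaled to the library's total). Log2 changes below are scaled by trimmed means of M-values (TMM), whose factors averaged 1.136 in BNPMT, 0.8019 in SEN and 1.097 in NC. Across the 14956 tested genes, the median log2 change in SEN against NC was -0.013 under TMM and -0.46 when libraries were scaled by total counts. It was 0.017 and 0.52 in BNPMT against SEN, and 0.0047 and 0.055 in BNPMT against NC. A small difference from SEN can therefore turn with the scale, and CPM and FPKM (CPM per kilobase of transcript) follow total counts. Libraries SEN 1 and BNPMT 1 deviated from the rest of their groups along transcript length, with a Spearman correlation across genes of -0.42 and 0.51 between length and the library's deviation from its group. Among markers of nucleus pulposus, Col2a1, Acan and Sox9, which also mark cartilage, were present in every library. Col2a1 was at a mean of 1962 CPM in BNPMT, 6492 CPM in SEN and 4571 CPM in NC. Of the 10 tested markers of this list, 6 rose and 3 fell in SEN against NC, beside 37.6% and 38.5% of all tested genes. Pax1, Car3 and Foxa2 fell, with Pax1 at 149 CPM in BNPMT, 52.7 CPM in SEN and 135 CPM in NC. The notochord marker Tbxt had at most 11 counts in any group, and the keratin gene Krt18 had 2 counts in BNPMT, 16 in SEN and 2 in NC. Sums of immune and epithelial markers were higher in SEN, with 8 immune markers summing to 16.9 to 19.2 CPM in BNPMT, 31.3 to 34.4 CPM in SEN and 11.8 to 13.2 CPM in NC, and 5 epithelial markers to 0.119 to 0.199, 5.43 to 6.12 and 0.0869 to 0.215 CPM in BNPMT, SEN and NC. Of the 5 tested immune markers, 3 rose in SEN against NC, among them Cd68, which makes up most of the sum in SEN, and 2 fell, Cd14 (16.6 CPM in BNPMT, 4.04 CPM in SEN and 11.4 CPM in NC) and Fcer1g. Itgam was at 3.97 CPM in SEN and at 0 in BNPMT and NC, and Lyz2 was at 0.0652 CPM in BNPMT, 1.55 CPM in SEN and 0.236 CPM in NC. The immune genes Adgre1 and Tyrobp were at 0 in SEN and BNPMT and had 1 and 2 counts in NC. The part of these markers in the results was not tested. In these bulk samples, fewer cells of a type and less RNA per cell cannot be told apart.

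RefSeq promoters, from 250 bases before to 50 after the annotated start of the gene in rat build GRCr8, were matched for 5 of the 7 genes. The submitters' processing notes name another rat build, mRatBN7.2, for the reads, and no measurement was made at these promoters. The sequences shown are those of Gja5 (chr2:187290977-187291276, plus strand), which differed most between groups, of Gja1 (chr20:36302314-36302613, plus strand), the most abundant member, and of Gjb2 (chr15:35381904-35382203, minus strand) and Panx1 (chr8:20171151-20171450, minus strand), which were both higher in BNPMT than in SEN. Capitals mark every match, on either strand, to an AP-1 site, a GC box, a TATA box, a CCAAT box, the core of a heat shock element or a CArG box.
Gja5: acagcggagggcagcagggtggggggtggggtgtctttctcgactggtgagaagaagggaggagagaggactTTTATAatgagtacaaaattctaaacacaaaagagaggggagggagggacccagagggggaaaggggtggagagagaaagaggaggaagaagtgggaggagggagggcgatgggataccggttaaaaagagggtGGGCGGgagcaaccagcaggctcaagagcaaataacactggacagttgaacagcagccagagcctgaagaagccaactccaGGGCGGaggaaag
Gja1: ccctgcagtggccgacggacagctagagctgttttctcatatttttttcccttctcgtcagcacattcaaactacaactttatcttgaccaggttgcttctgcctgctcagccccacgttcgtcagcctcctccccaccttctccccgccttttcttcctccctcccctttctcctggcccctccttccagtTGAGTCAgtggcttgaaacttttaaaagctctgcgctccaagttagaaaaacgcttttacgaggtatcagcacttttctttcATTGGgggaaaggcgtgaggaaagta
Gjb2: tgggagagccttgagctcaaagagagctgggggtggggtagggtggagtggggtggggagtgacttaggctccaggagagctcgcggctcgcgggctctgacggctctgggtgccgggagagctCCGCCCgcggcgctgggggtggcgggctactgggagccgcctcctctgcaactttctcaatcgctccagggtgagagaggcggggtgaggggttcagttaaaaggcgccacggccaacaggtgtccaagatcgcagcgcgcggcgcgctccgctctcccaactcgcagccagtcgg
Panx1: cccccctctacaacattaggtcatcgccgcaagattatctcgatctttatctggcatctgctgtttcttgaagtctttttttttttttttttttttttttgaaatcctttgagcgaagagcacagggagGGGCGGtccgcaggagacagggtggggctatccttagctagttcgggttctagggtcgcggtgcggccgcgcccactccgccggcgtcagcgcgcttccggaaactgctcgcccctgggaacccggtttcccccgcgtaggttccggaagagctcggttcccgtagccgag
Of these 4 promoters, that of Gja1 alone held an AP-1 site, searched for as TGANTCA and found as TGAGTCA, 58 to 52 bases before the start, and such a site was in 7.33% of 33469 RefSeq rat promoters of the same length. The GC box, written GGGCGG, was in 33.1% of all promoters and occurred at 2 places in Gja5 and at 1 place each in Gjb2 and Panx1. Gja5 also held the letters of the TATA box, written TATAAA, on the minus strand at -178 to -173, and Gja1 held the CCAAT box, which is spelled by its name, on the minus strand just after its start. The TATA letters were in 14.2% of all promoters, those of the CCAAT box in 37.5%, the heat shock core, written GAANNTTC, in 8.59% and the CArG box in 1.64%. None of the 4 sequences held a match to the heat shock core or the CArG box. The matches did not overlap each other.

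Per kilobase of transcript, Gja1 was the highest of the 7 genes in every group, with a mean of 119 FPKM in BNPMT, 78.4 FPKM in SEN and 94.5 FPKM in NC. In BNPMT, Gja5 came next at 5.13 FPKM, followed by Gjc1 at 4.17, Panx1 at 3.86, Gjb2 at 3.47 and Gja4 at 0.328 FPKM. The libraries of Gjc1 overlapped those of Panx1, and those of Panx1 overlapped those of Gjb2, so these neighbours did not differ beyond their spread. In SEN, the order behind Gja1 was Gjc1 at 3.02, Gjb2 at 1.54, Panx1 at 1.37, Gja4 at 0.311, Gja5 at 0.0589 and Panx3 at 0.0234 FPKM, with Gjb2 overlapping Panx1 and Gja5 overlapping Panx3. In NC, it was Gjc1 at 4.91, Gja5 at 3.69, Panx1 at 3.36, Gjb2 at 1.91, Gja4 at 0.135 and Panx3 at 0.0312 FPKM, with Gja5 overlapping Panx1. Gja5 was thus among the highest of the 7 genes behind Gja1 in BNPMT and NC and near the bottom in SEN.

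Gja5 was nearly absent from the SEN libraries and was present in every BNPMT and NC library. It had 703, 575 and 637 counts in BNPMT, 10, 3 and 7 counts in SEN, and 392, 497 and 467 counts in NC. In CPM, these were 16.8, 16.4 and 15.2 in BNPMT, 0.260, 0.0961 and 0.198 in SEN, and 11.4, 12.3 and 11.2 in NC. The 3 groups did not overlap, BNPMT was the highest, and the lowest SEN library was at the floor of 3 counts.

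**Figure D1:**
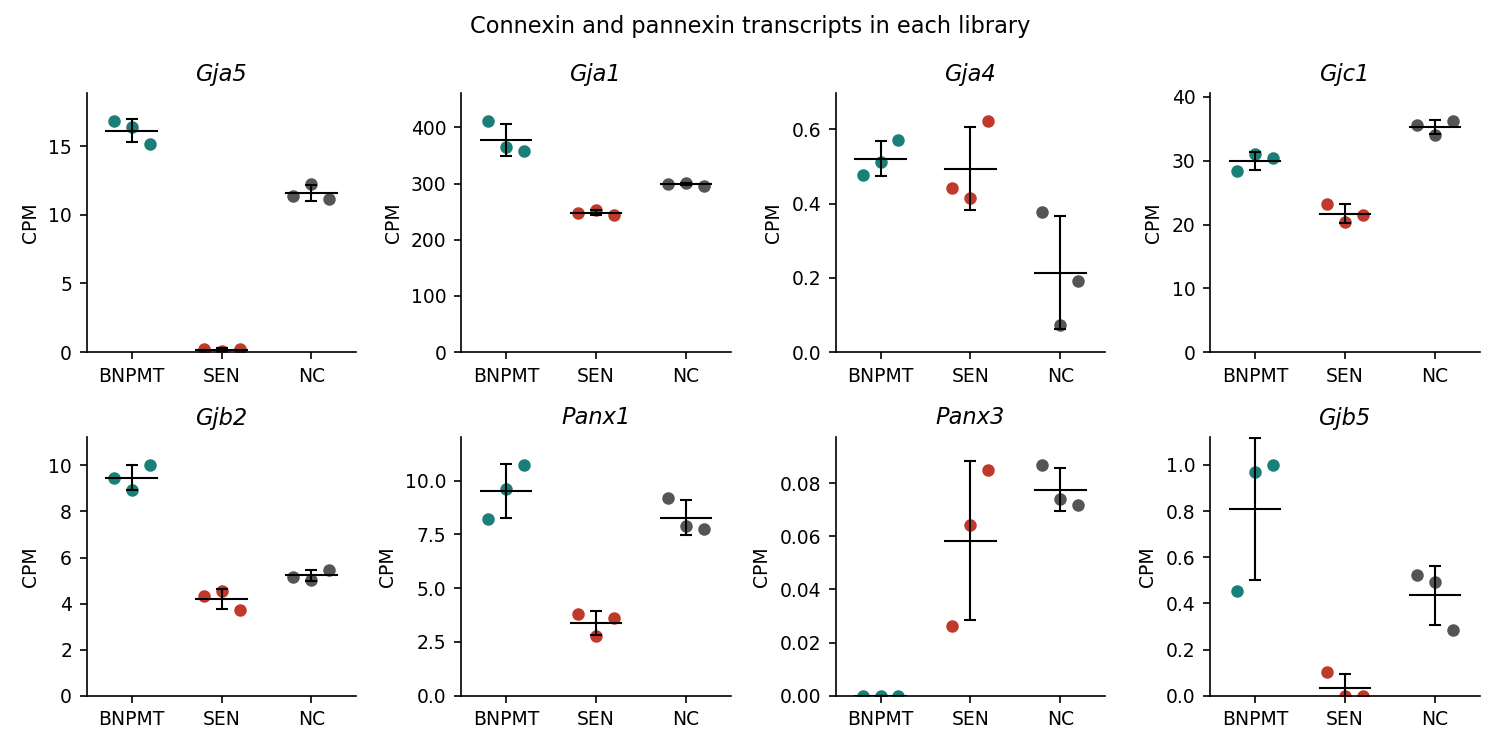
CPM (scaled to total counts) of 8 connexin and pannexin genes in each of 9 libraries, with the mean (line) and SD (bar) of each group of 3, each panel on its own linear axis that starts at 0. Gja5 lies between 15.2 and 16.8 CPM in BNPMT, at or below 0.260 CPM in SEN and between 11.2 and 12.3 CPM in NC, while Gjb2 is highest in BNPMT and Panx1 lowest in SEN.

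The CPM of Gja5 in SEN was 60.9-fold lower than in NC (20 against 1356 counts, 95% counting interval 39.3 to 100.0), and in BNPMT it was 84.5-fold higher than in SEN (1915 against 20 counts, 54.6 to 139). On the TMM scale, the log2 change was -5.46 ± 0.19 (SE) for SEN against NC and 5.88 ± 0.19 for BNPMT against SEN. As a place among the 14956 tested genes, 4 had a more negative log2 change than Gja5 in SEN against NC, and 4 had a more positive change in BNPMT against SEN. BNPMT was also above NC, at 16.1 ± 0.848 and 11.6 ± 0.598 CPM (SD, n = 3 each), a log2 change of 0.42 ± 0.10 that passed edgeR's quasi-likelihood test (adjusted p = 0.00315, higher in all 3 BNPMT libraries). As a share of the Gja1 FPKM of the same library, which is free of the scale between libraries, Gja5 was at 4.30% ± 0.197 in BNPMT, 0.0753% ± 0.0341 in SEN and 3.91% ± 0.181 in NC (SD, n = 3). These intervals, and all floors, account for the error of counting and for nothing else.

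Gja5 is a gene of arterial lining cells, and the summed level of 11 endothelial markers was 27.5 to 33.3 CPM in BNPMT, 22.5 to 25.6 CPM in SEN and 28.8 to 29.0 CPM in NC. Most of this sum was Egfl7, at a mean of 27.0 CPM in BNPMT, 13.2 CPM in SEN and 21.0 CPM in NC. Of the 7 tested, 3 rose and 2 fell in SEN against NC, beside 37.6% and 38.5% of all tested genes. Pecam1, at 0.0254 CPM in BNPMT, 4.04 CPM in SEN and 0.0165 CPM in NC, and Erg, at 1.03, 4.99 and 2.92 CPM in BNPMT, SEN and NC, were highest in SEN, where Gja5 was lowest. Cdh5 and Emcn were at 0 in all BNPMT and NC libraries, and Tie1 and Sox17 in all NC libraries. The summed level of 12 smooth muscle markers was 2857 to 3107 CPM in BNPMT, 1563 to 1750 CPM in SEN and 5002 to 5043 CPM in NC, with none of them at 0 in any group, and that of 9 pericyte markers was 390 to 460, 235 to 261 and 477 to 503 CPM in BNPMT, SEN and NC, with Rgs5 at 0 in BNPMT and Higd1b at 0 in BNPMT and NC. The part of these 3 lists in the level of Gja5 was not tested.

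**Figure D2:**
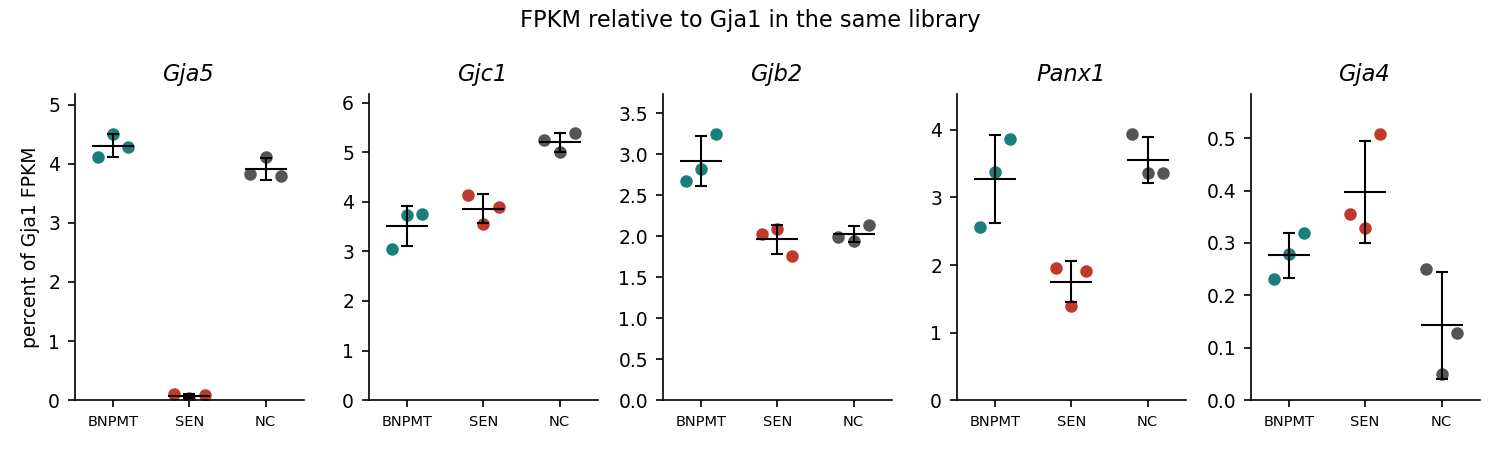
FPKM of 5 genes as a percent of the Gja1 FPKM of the same library, with 3 points per group and the mean and SD in black, each panel on its own linear axis that starts at 0. Gja5 lies near 4% in BNPMT and NC and below 0.106% in SEN, Panx1 is at a mean of 3.27% in BNPMT, 1.75% in SEN and 3.56% in NC, and Gjc1 is highest in NC.

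Gja1 encodes Cx43, the main gap junction protein of disc and cartilage cells. It had 411, 366 and 357 CPM in BNPMT, 248, 252 and 243 CPM in SEN, and 299, 300.4 and 297 CPM in NC. The groups did not overlap on this scale, with BNPMT the highest and SEN the lowest. BNPMT was above NC on both scales, and rose by 0.29 ± 0.05 on the log2 scale (adjusted p = 0.000651) with TMM and by 0.34 with total counts. For SEN against NC the call passed in both, but its sign turned: TMM gave 0.18 ± 0.05 (adjusted p = 0.00746) and total counts gave -0.27 (adjusted p = 0.00058), so the direction of Gja1 in SEN rests on the scale. In BNPMT against SEN the change was 0.10 ± 0.05 on the TMM scale (adjusted p = 0.0912), while total counts gave 0.61 and an adjusted p of 2.13e-07. Changes of this size were common, and in SEN against NC 6237 tested genes had a larger log2 change than Gja1.

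Gjc1 encodes Cx45, a connexin of early heart and smooth muscle. Its levels were 28.4, 31.1 and 30.4 CPM in BNPMT, 23.3, 20.3 and 21.5 CPM in SEN, and 35.6, 34.1 and 36.2 CPM in NC. SEN was lowest and NC highest, with no overlap between groups. Gjc1 fell in SEN against NC (log2 change -0.25 ± 0.07, adjusted p = 0.00737) and was also lower in BNPMT than in NC (-0.29 ± 0.07, adjusted p = 0.00460), and both signs held with total counts. Both calls were lost when transcript length was allowed for, but only the change in BNPMT against NC went away, and that in SEN against NC moved by less than its SE. With each library's trend with length taken out, the change was -0.21 (adjusted p = 0.0508) for SEN against NC and -9.39e-05 (adjusted p = 1) for BNPMT against NC. In BNPMT against SEN, TMM gave -0.039 ± 0.073 (adjusted p = 0.636) and total counts gave 0.46 (adjusted p = 3.34e-05). As a share of Gja1 FPKM, Gjc1 stood at 3.51% ± 0.404 in BNPMT, 3.86% ± 0.290 in SEN and 5.20% ± 0.194 in NC (SD, n = 3), so BNPMT and SEN overlapped and NC lay above both.

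Gjb2 encodes Cx26, known from the inner ear and from skin. It had 9.47, 8.92 and 10.0 CPM in BNPMT, 4.35, 4.55 and 3.70 CPM in SEN, and 5.16, 5.04 and 5.47 CPM in NC. Every BNPMT library was above every library of the other groups. Gjb2 rose in BNPMT against SEN (log2 change 0.67 ± 0.11, adjusted p = 8.86e-05) and in BNPMT against NC (0.81 ± 0.11, adjusted p = 5.62e-05), and passed in both under all 20 alternatives, at 0.49 to 1.17 and 0.62 to 0.86. In BNPMT against NC, 913 of the tested genes had a larger log2 change. In SEN against NC, TMM gave 0.14 ± 0.12 (adjusted p = 0.304) and total counts gave -0.32 (adjusted p = 0.0243). Relative to Gja1 FPKM, Gjb2 was at 2.92% ± 0.302 in BNPMT, 1.96% ± 0.173 in SEN and 2.02% ± 0.0999 in NC.

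Gjb5, a connexin gene of skin that is not among the 7, was low and had its lowest level in SEN. It had 19, 34 and 42 counts in BNPMT, 4, 0 and 0 counts in SEN, and 18, 20 and 12 counts in NC. BNPMT and NC overlapped, and SEN lay below both. Gjb5 fell in SEN against NC (adjusted p = 0.00415, a CPM ratio 11.2-fold lower, 4.12 to 42.8 by its counting interval) and rose in BNPMT against SEN (adjusted p = 0.000287, 21.0-fold, 7.93 to 78.5). For BNPMT against NC the log2 change was 0.85 ± 0.46 (adjusted p = 0.137). Gjb5 passed the filter on low counts through BNPMT and NC, where it is higher, so a difference from SEN is in part built into its being tested.

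Gja4 encodes Cx37, which partners Cx40 in arterial lining cells, and was low in all groups. It had 20, 18 and 24 counts in BNPMT, 17, 13 and 22 counts in SEN, and 13, 3 and 8 counts in NC, where the lowest library was at the floor. BNPMT and SEN overlapped, and both lay above NC. Gja4 rose in SEN against NC (log2 change 1.69 ± 0.46, adjusted p = 0.00406, a CPM ratio of 2.41, 1.46 to 4.09 by its counting interval). For BNPMT against NC the change was 1.26 ± 0.45 (adjusted p = 0.0296), a call lost without NC 2 (0.85, adjusted p = 0.129), NC 3 (1.19, adjusted p = 0.0901), BNPMT 2 (1.26, adjusted p = 0.0634) or BNPMT 3 (1.19, adjusted p = 0.0847). BNPMT against SEN gave -0.43 ± 0.40 (adjusted p = 0.336), while the same contrast scaled by total counts gave 0.075 (adjusted p = 0.867). It passed the filter on low counts through BNPMT and SEN, where it is higher, so a difference from NC is in part built into its being tested. In SEN, Gja4 lay above NC while Gja5 lay far below it, which is a description only, since Gja5 was chosen for that difference.

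Panx1, which forms the widely expressed pannexin channel that releases ATP, was lower in SEN and at a like level in the other groups. It had 8.23, 9.63 and 10.7 CPM in BNPMT, 3.78, 2.76 and 3.62 CPM in SEN, and 9.21, 7.88 and 7.76 CPM in NC. SEN overlapped neither group, while BNPMT and NC overlapped. Panx1 fell in SEN against NC (log2 change -0.83 ± 0.15, adjusted p = 0.000177) and rose in BNPMT against SEN (0.98 ± 0.15, adjusted p = 3.08e-05). Both calls held under all 20 alternatives, at -1.28 to -0.71 and 0.77 to 1.49. BNPMT against NC gave 0.16 ± 0.13 (adjusted p = 0.356). In SEN against NC, 2849 tested genes had a more negative change.

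Panx3, the pannexin of cartilage and bone, was barely detected and was not tested. It had 0, 0 and 0 counts in BNPMT, 1, 2 and 3 counts in SEN, and 3, 3 and 3 counts in NC. Every library was at or below the floor of 3 counts, so no fold is given. The summed level of 11 markers of bone and hypertrophic cartilage was 3658 to 3946 CPM in BNPMT, 1436 to 1466 CPM in SEN and 1253 to 1289 CPM in NC, nearly all of it Spp1, whose mean was 3805, 1415 and 1228 CPM. Of the 9 tested, 7 rose and 1 fell in SEN against NC, beside 37.6% and 38.5% of all tested genes. In BNPMT against SEN, 1 rose and 6 fell, beside 40.7% and 39.9%. Alpl was at 1.05 CPM in BNPMT, 5.43 CPM in SEN and 3.66 CPM in NC, and Phex and Dmp1 were also lowest in BNPMT. Spp1, Mepe and Sp7 were highest in BNPMT, and Runx2 was lowest in SEN. Ihh, at 0.0333, 3.85 and 0.0329 CPM in BNPMT, SEN and NC, was highest in SEN, as were Ibsp, Bglap and Col10a1. Ihh passed the filter on low counts through SEN. The part of these markers in the level of Panx3 was not tested. The summed level of 14 cartilage markers was 4044 to 4637 CPM in BNPMT, 14327 to 15366 CPM in SEN and 9283 to 9532 CPM in NC. Panx2 had 18 counts in BNPMT, 17 in SEN and 22 in NC. Of the other rare connexins, Gjd4 had 0 counts in BNPMT, 20 in SEN and 0 in NC. Its CPM in SEN was at least 5.50-fold that in NC by its 95% counting interval, and SEN 3 alone held 13 of the 20 counts. Gjb1 had 1, 9 and 0 counts over the BNPMT, SEN and NC libraries.

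The calls among the 7 genes were set beside those among all tested genes. In SEN against NC, 76.1% of tested genes passed (37.6% higher and 38.5% lower), and of the 7 genes 2 passed as higher (Gja1 and Gja4), 2 as lower (Gjc1 and Panx1) and 1 did not pass (Gjb2), while Panx3 was filtered out and Gja5, chosen on this contrast, is not counted. In BNPMT against SEN, 80.6% of tested genes passed (40.7% higher and 39.9% lower), and, Gja5 again not counted, 2 genes were higher (Gjb2 and Panx1), none was lower and 3 did not pass. In BNPMT against NC, 52.8% of tested genes passed (26.3% higher and 26.5% lower), and 4 genes were higher (Gja5, Gja1, Gja4 and Gjb2), 1 lower (Gjc1) and 1 did not pass (Panx1). The median log2 change of the 6 tested genes in BNPMT against NC was 0.36, beside 0.0047 for all tested genes. This median is a description, since the genes were chosen with earlier results of these data known and Gja4 passed the filter through BNPMT and SEN. The sign of Gja1 in SEN against NC turned with total counts. The comparisons share libraries, so their counts are not independent. With total counts, called genes of the whole table were 3667 higher and 8513 lower in SEN against NC and 8575 higher and 3857 lower in BNPMT against SEN, compared with 5628 and 5754, and 6092 and 5969, under TMM.

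**Figure D3:**
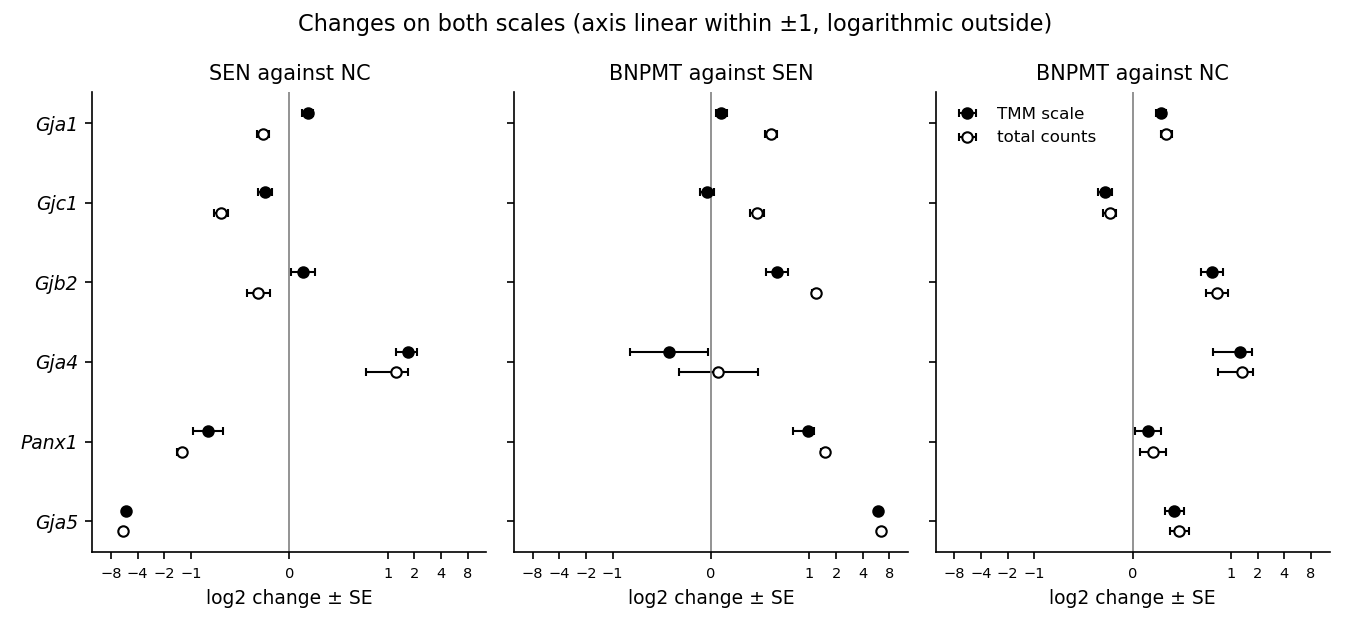
Log2 change with SE of 6 tested connexin and pannexin genes in SEN against NC, BNPMT against SEN and BNPMT against NC, under TMM (filled) and with total counts (open), on an axis that is linear within ±1 and logarithmic outside. Gja1 and Gjb2 lie on opposite sides of 0 in SEN against NC under the 2 scales, whereas Gja5 and Panx1 keep their side in both comparisons with SEN.

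The genes whose levels over the 9 libraries were most like those of Gja5 were found as those with the smallest root-mean-square difference of log2 CPM, each gene centred on its own mean, among 10182 genes. Ift70b, a gene of transport along cilia, was nearest at a difference of 0.563, followed by Pars2, a mitochondrial tRNA synthetase gene, at 0.661. Krt7, a keratin gene, was next at 0.872, then Oma1, a mitochondrial protease gene, at 0.885, Irag1, a gene of cGMP signalling, at 0.918, and Gdf5, a growth factor gene of joints, at 0.937. All 6 were present in BNPMT and NC and low in SEN. Ift70b had a mean of 17.1 CPM in BNPMT, 0.457 CPM in SEN and 10.8 CPM in NC, and Gdf5 had 16.1, 0.478 and 7.45 CPM in BNPMT, SEN and NC. Krt7 had 37.4, 0.888 and 11.5 CPM and stood further above NC in BNPMT than Gja5 did, with a log2 change of 1.65. Irag1 went the other way in that comparison, at 20.7 CPM in BNPMT and 30.7 CPM in NC. For Gja1, the nearest genes were Calcoco1 at 0.0389, Mroh1 at 0.0479 and Xrcc1 at 0.0481. The difference is not scaled to the size of a gene's pattern. Small values therefore come easily to a shallow pattern such as that of Gja1, and cannot be set beside those for Gja5.

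**Figure D4:**
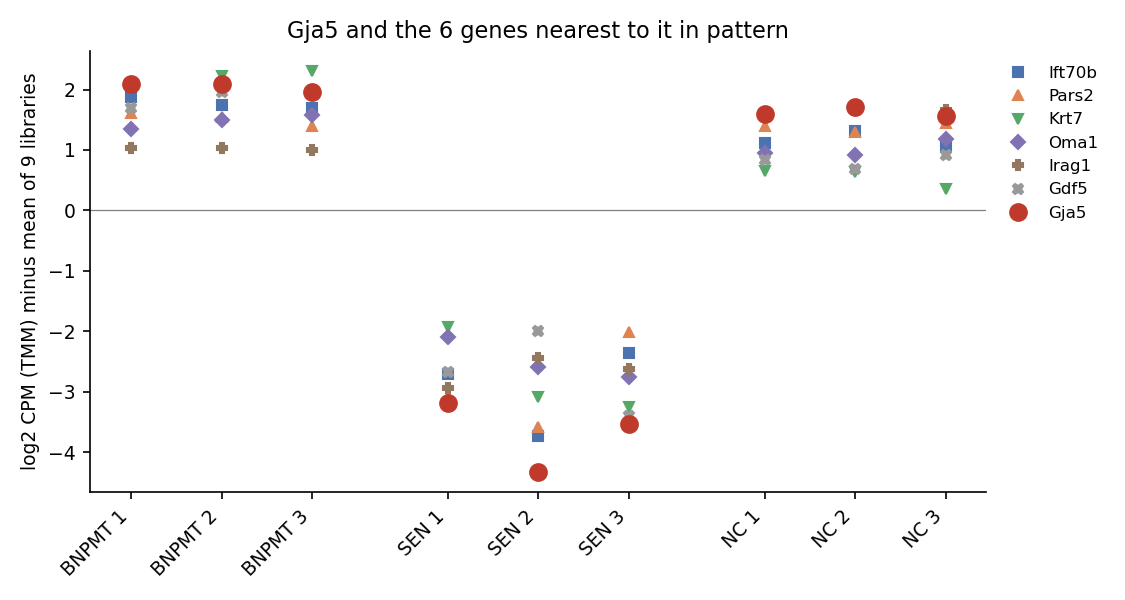
Log2 CPM under TMM, minus the mean of the 9 libraries, for Gja5 and the 6 genes nearest to it in pattern, in each library. All 7 genes are above 0 in every BNPMT and NC library and below 0 in every SEN library, and Gja5 is the lowest of them in each SEN library.

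Of 20 genes for partners and regulators of connexins, 8 rose and 8 fell in SEN against NC (median log2 change -0.058), 6 rose and 11 fell in BNPMT against SEN (-0.22), and 4 rose and 7 fell in BNPMT against NC (-0.017). Of all tested genes, 37.6% rose and 38.5% fell in SEN against NC, 40.7% and 39.9% in BNPMT against SEN, and 26.3% and 26.5% in BNPMT against NC. With total counts, these were 5 and 13, 14 and 6, and 7 and 7, so the balance of this list with SEN rests on the scale. Cdh2, the N-cadherin gene whose adhesions precede gap junctions, was at 34.0 CPM in BNPMT, 14 CPM in SEN and 34.9 CPM in NC, and fell in SEN against NC (log2 change -0.87 ± 0.07, adjusted p = 1.18e-07). Ccn3, whose product binds Cx43, was at 48.8, 181 and 88.5 CPM in BNPMT, SEN and NC, rose in SEN against NC (1.48 ± 0.07) and fell in BNPMT against SEN (-2.39 ± 0.08) and against NC (-0.91 ± 0.07). Prkcd, a kinase gene of the protein kinase C family, whose members phosphorylate Cx43, rose in SEN against NC (1.65 ± 0.06) and fell in BNPMT against SEN (-1.51 ± 0.06). Prkaca, the catalytic subunit of protein kinase A, fell in SEN against NC (-0.72 ± 0.06) and rose in BNPMT against SEN (0.73 ± 0.06).

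Among 10 tested genes for other channels and exporters of ATP, 4 rose and 5 fell in SEN against NC (median log2 change -0.22, 2 and 5 with total counts), 3 rose and 5 fell in BNPMT against SEN (-0.84), and none rose and 5 fell in BNPMT against NC (-0.40). All tested genes passed at 76.1%, 80.6% and 52.8% in these comparisons. By direction, 37.6% rose and 38.5% fell in SEN against NC, 40.7% and 39.9% in BNPMT against SEN, and 26.3% and 26.5% in BNPMT against NC. The ATP channel gene Calhm2 was at 51.7 CPM in BNPMT, 15.0 CPM in SEN and 52.2 CPM in NC, and fell in SEN against NC (log2 change -1.34 ± 0.06, adjusted p = 2.43e-10). Subunits of the volume-regulated anion channel moved in opposite directions in SEN against NC. Lrrc8a, the subunit the channel requires, rose (1.11 ± 0.09), while Lrrc8d (-1.01 ± 0.08) and Lrrc8e (-1.49 ± 0.15) fell, and each had the reverse call in BNPMT against SEN. Slco2a1, whose product is part of a large ATP-releasing channel, was at 9.12 CPM in BNPMT, 13.4 CPM in SEN and 34.1 CPM in NC, and fell in BNPMT against NC (-1.95 ± 0.10, adjusted p = 1.33e-08).

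Of 10 tested receptors for ATP and adenosine, 4 rose and 4 fell in SEN against NC (median log2 change 0.0049), 4 rose and 6 fell in BNPMT against SEN (-0.57), and 3 rose and 2 fell in BNPMT against NC (0.13). The share of all tested genes was 37.6% higher and 38.5% lower in SEN against NC, 40.7% and 39.9% in BNPMT against SEN, and 26.3% and 26.5% in BNPMT against NC. The ATP-gated channel gene P2rx5 was at 17.1 CPM in BNPMT, 2.97 CPM in SEN and 13.2 CPM in NC, and fell in SEN against NC (log2 change -1.71 ± 0.15). Adora2b, an adenosine receptor gene, was at 4.96 CPM in BNPMT, 0.359 CPM in SEN and 2.02 CPM in NC, fell in SEN against NC (-2.02 ± 0.23) and rose in BNPMT against NC (1.25 ± 0.16, adjusted p = 4.10e-05). Adora2a was low and highest in SEN, with 0.0493 CPM in BNPMT, 0.725 CPM in SEN and 0.0165 CPM in NC. Of 10 tested ecto-nucleotidase genes, which break down ATP and related molecules outside the cell, 6 rose and 2 fell in SEN against NC (median 0.84, 5 and 4 with total counts), 3 rose and 7 fell in BNPMT against SEN (-1.65), and none rose and 7 fell in BNPMT against NC (-0.42), beside the same shares of all tested genes (37.6% and 38.5%, 40.7% and 39.9%, and 26.3% and 26.5%). Enpp3 was at 20.6 CPM in BNPMT, 44.3 CPM in SEN and 29.1 CPM in NC, rose in SEN against NC (1.06 ± 0.07) and fell in BNPMT against NC (-0.54 ± 0.07). Cd38, which cleaves NAD, was at 11.3, 2.93 and 13.5 CPM in BNPMT, SEN and NC and fell in SEN against NC (-1.75 ± 0.13).

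Of 19 tested genes for transcription factors and pathway genes tied to connexin or pannexin genes, 10 rose and 3 fell in SEN against NC (median log2 change 0.71, 10 and 6 with total counts), 4 rose and 10 fell in BNPMT against SEN (-1.17, 8 and 10 with total counts), and 3 rose and 10 fell in BNPMT against NC (-0.29). In all tested genes, 37.6% rose and 38.5% fell in SEN against NC, 40.7% and 39.9% in BNPMT against SEN, and 26.3% and 26.5% in BNPMT against NC. The AP-1 genes Fos and Jun were far higher in SEN. Fos was at 12.8 CPM in BNPMT, 547 CPM in SEN and 15.8 CPM in NC (log2 change 5.57 ± 0.07 in SEN against NC), and Jun was at 121, 1046 and 102 CPM in BNPMT, SEN and NC (3.82 ± 0.05). The Gja1 promoter holds an AP-1 site in the window shown above, and Gja1 itself was at 0.829 of its NC level in SEN by CPM but above NC under TMM. The part of this site, or of Fos and Jun, in the level of Gja1 was not tested. Klf4 was at 24.2 CPM in BNPMT, 492 CPM in SEN and 28.4 CPM in NC (4.57 ± 0.06). The T-box repressor gene Tbx3, whose product represses Gja5 and Gja1 in the mouse heart, was at 7.96 CPM in BNPMT, 2.74 CPM in SEN and 5.04 CPM in NC, and rose in BNPMT against SEN (1.03 ± 0.18) and against NC (0.61 ± 0.17, adjusted p = 0.00705). Myocd, a coactivator of smooth muscle genes, was at 4.81 CPM in BNPMT, 0.908 CPM in SEN and 15.4 CPM in NC, fell in SEN against NC (-3.63 ± 0.21) and fell in BNPMT against NC (-1.72 ± 0.17). Adjusted p-values of the main fit are over all 14956 tested genes, and those of fits that left out a library are over the genes tested in that fit.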

How the data were processed

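Poly(A) RNA of 9 libraries in 3 groups of 3 was measured, from TRIzol extracts with a VAHTS Universal V6 kit, per the labels' protocols. The authors deposited whole-number counts per gene and FPKM values. Dividing each count by gene length and library total gave the deposited FPKM to within a relative difference of 6.66e-16. Per the submitters' processing notes, fastp, HISAT2, HTSeq and build mRatBN7.2 were used, with no versions. Which annotation was used, and whether counting was stranded, is not given in the sources used here.

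All main tests used the counts, with edgeR 4.0.16 in R 4.3.3 (TMM, filterByExpr with a minimum count of 10, quasi-likelihood F test over all 9 libraries, Benjamini-Hochberg adjustment over 14956 genes, threshold 0.05). Adjusted p-values in the text are from this fit, except where an alternative is named. SEs were the log2 change over the square root of F. CPM used total counts, and log2 CPM for the nearest genes a prior count of 2. Counting intervals are exact, at 95%. No libraries were duplicates (chi-square per degree of freedom 3.52 to 33.6 within groups). Depth per library and the CPM value of the floor of 3 counts stand in the report.

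The 7 genes and all lists were chosen with earlier results of these data known. Named were the 7 genes, a few other connexins and pannexins with counts, genes among up to 3 per list, direction and comparison with the smallest adjusted p, the 6 genes nearest to Gja5 and the 3 nearest to Gja1 (mean of at least 5 CPM). Other connexin genes are not reported here. RefSeq GRCr8 gene IDs matched for 17 of 17 genes of the connexin and pannexin lists.

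The 20 alternatives were DESeq2 1.42.0 size factors in edgeR, total counts alone, the DESeq2 Wald test, no filter, a filter of 1 CPM in 3 libraries, fitting the compared groups alone, the replicate number as a block, limma 3.58.1 on log2(FPKM + 1) and log2(FPKM + 0.1), which understate changes of low genes, each library's trend with length taken out by loess, leaving out each library, and leaving out SEN 1 and BNPMT 1.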

Additional observations from a re-analysis of the deposited data

How the results depend on the processing

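The scale matters most for small differences from SEN. With total counts, FPKM + 1 and FPKM + 0.1 in that order, SEN against NC gave -0.27, -0.27 and -0.27 for Gja1 and -0.32, -0.20 and -0.30 for Gjb2, reversing their signs, and BNPMT against SEN gave 0.61, 0.60 and 0.61 for Gja1, which then passed, 0.46, 0.36 and 0.45 for Gjc1 and 0.075, 0.020 and 0.070 for Gja4, both reversed. Gja5 kept its sides but moved to -5.91, -2.15 and -4.59 in SEN against NC and to 6.38, 2.53 and 5.05 in BNPMT against SEN, where the constant added to FPKM shrinks low values. Lrrc8c in SEN against NC turned to -0.11, -0.098 and -0.11 and Notch3 to -0.00812, -0.00313 and -0.00409, and Des to -0.000951 and -0.00135 on FPKM + 1 and + 0.1. Called genes were then 3667, 3651 and 3673 higher in SEN against NC and 3857, 3782 and 3829 lower in BNPMT against SEN. Without a filter, Gja1 lost its call in SEN against NC (0.12) and passed in BNPMT against SEN (0.16), and Gjc1 turned in BNPMT against SEN (0.018).

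With the length trend taken out, Gjb2 passed in SEN against NC (0.27), Gjc1 lost its calls in SEN against NC (-0.21) and BNPMT against NC (-9.39e-05), Gja4 lost its call in BNPMT against NC (1.01), and Gja1 (-0.036), Gjc1 (0.21) and Car3 (-0.058) turned in BNPMT against SEN; the cause was not tested. Leaving out each library gave 0.060 to 0.15 for Gja1 in BNPMT against SEN (passed without BNPMT 3), -0.080 to 0.025 for Gjc1 in BNPMT against SEN (turned without SEN 1 or BNPMT 1) and 0.85 to 1.89 for Gja4 in BNPMT against NC. Leaving out SEN 1 and BNPMT 1 together turned Gjc1 in BNPMT against SEN to 0.067. Over the 20 alternatives, 319 member results were labelled as kept, 18 reversed, 6 moved, 6 newly passed and 8 lost their call. The tally includes Gja5 in the comparisons with SEN, which carry no test and so have no call to keep. Of its results, 17 in SEN against NC and 17 in BNPMT against SEN are among those kept, by a rule of spread alone. The 6 that moved are also results of Gja5 in these comparisons. The filter of 1 CPM left out Gja4.

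Titles number the replicates in each group, and whether the numbers pair the samples is not known. Deviations of same-numbered libraries correlated at -0.24 to 0.06. That cannot decide it, because libraries with different numbers were not compared and SEN 1 and BNPMT 1 deviated along transcript length. With the replicate block, called genes were 11143, 11842 and 7348 in SEN against NC, BNPMT against SEN and BNPMT against NC, compared with 11382, 12061 and 7903 without it, and no member's call changed. Depth limits Panx3, Gja4 and Gja5 in SEN, where libraries hold 24 or fewer counts.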
